A study of Mus musculus with 4 samples.

Results

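The genes described here were the 4 myogenic regulatory factor genes Myod1, Myf5, Myf6 and Myog and the myostatin gene Mstn, in mouse skeletal muscle without adrenal glands and after a glucocorticoid. Every probe set that the platform annotation pairs with 1 of these symbols alone was taken, which gave 5 probe sets, 1 per gene, of 12422 on the array without controls, and 5 genes of 8251 with such a probe set. RNA of the gastrocnemius, a calf muscle, was hybridized to Affymetrix MG-U74Av2 arrays. There were 4 groups, and each was 1 array of RNA pooled from 10 mice. The intact mice had their adrenals and received no stated treatment. The other 3 groups were adrenalectomized, a surgery that removes the source of corticosterone, and the group without further treatment was studied 1 week afterwards. Another 2 groups received 0.1 mg of cortisol into the peritoneal cavity 3 h or 24 h before the muscle was taken. For these 2 groups the labels gave no interval since surgery, and for no group did they give a vehicle injection, a strain, a sex, an age or a time of day. With 1 array per group no test was possible, no p-value or replicate error exists, and all differences below compare 1 pool with another.

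MyoD1, Myf5, myogenin and Myf6 (also called MRF4) are basic helix-loop-helix transcription factors that pair with E proteins and bind E-boxes, short elements of muscle gene promoters and enhancers. In development Myf5 and MyoD1 commit cells to the muscle lineage, and myogenin drives their terminal differentiation. Myf6 is the family member best known for its expression in mature fibres. Myostatin is a secreted protein of the transforming growth factor beta family that fibres release and that limits muscle mass. It signals through activin type II receptors, type I receptors and the transducers Smad2 and Smad3, and follistatin binds and blocks it. Glucocorticoids in excess cause loss of muscle mass.

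The main differences lay on the 3 h array. Myod1 was 2.29-fold lower there than on the adrenalectomized array, and its signal at 24 h was 94.0% of the adrenalectomized signal. Myf6 and Myog had smaller ratios in the same direction, while Mstn was 1.48-fold higher. Myf5 stayed below the floor of 100 intensity units on all 4 arrays, so no ratio was formed for it. After adrenalectomy alone the other 4 genes differed from intact muscle by less than 1.5-fold and by less than the error defined below, beside 4.91% of all genes past 1.5-fold and 9.02% past that error. The same held at 24 h against the adrenalectomized array, beside 10% and 8.29% of all genes.

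Signals are intensities after each array was scaled to a trimmed mean of 500, and signals of different probe sets were not compared in level. The only error inside the data was the SD between log2 ratios of 2 probe sets of the same gene, divided by the square root of 2. Adrenalectomy alone had an SD of 0.24 by this measure, and the ratios to the adrenalectomized array had 0.28 at 3 h and 0.32 at 24 h, over 926 to 928 genes with a second probe set. It holds no variation between mice or pools. Below, a ratio is said to pass this error when it exceeds 2 times that SD. All arrays were of 1 chip lot, but each ran on a fluidics module of its own, numbered 1 to 4, so effects of the module, the pool and the treatment cannot be told apart. Between 63.0% and 64.4% of probe sets reached the floor, and log2 signals of the arrays correlated at 0.979 to 0.990 between pairs of arrays. Of 15 fast fibre markers 14 reached the floor on every array, and Myh2 was below it on all 4.

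**Figure D1:**
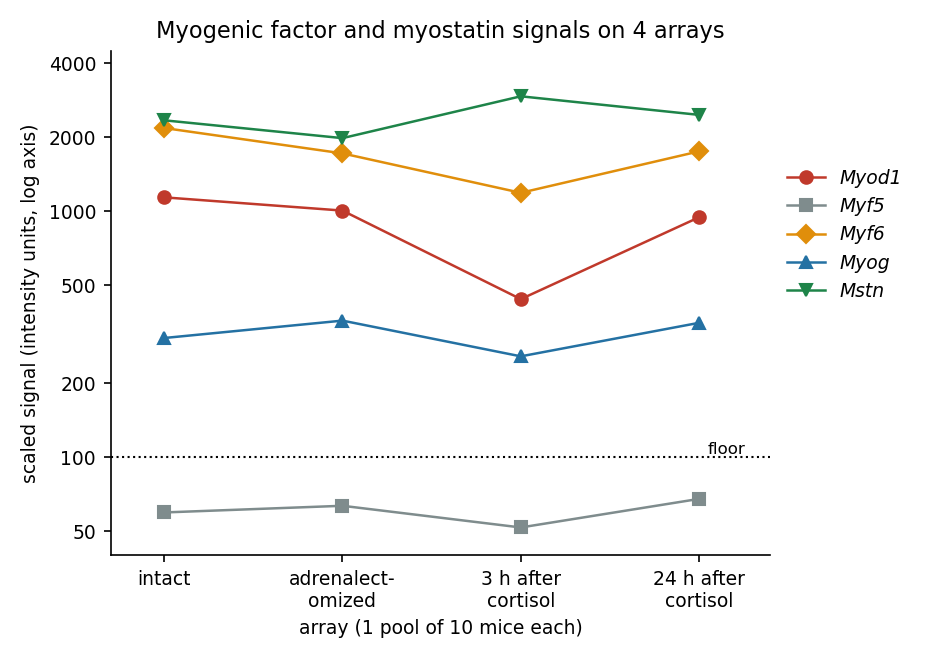
Scaled signal (log axis, intensity units) of the 5 genes on each of the 4 arrays; every point is 1 array and the dotted line is the floor of 100. Myod1 drops to 440.1 on the 3 h array only, Mstn is highest there at 2938, and all Myf5 points lie below the floor.

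Myod1 read 1141 in intact muscle, 1008 after adrenalectomy, 440.1 at 3 h after cortisol and 947 at 24 h. The 3 h array thus stood apart from the other 3, which lay between 947 and 1141. The log2 ratio at 3 h against adrenalectomized was -1.20, or -4.27 in units of the probe set SD, beside 5.25% of all genes that were lower past the error. Of 6168 genes compared there, 35 had a ratio this low or lower, counting Myod1. Myod1 was the only 1 of the 4 measurable members past 2-fold in this comparison, in which 1.17% of all genes were at least 2-fold lower. From 3 h to 24 h Myod1 was 2.15-fold higher, where 1.32% of all genes passed 2-fold in that direction. Against intact muscle the 3 h signal was 2.59-fold lower, beside 1.04% of all genes at least 2-fold lower. These 3 ratios share the 3 h array and are not independent of each other. In the order of the arrays, only the step from 24 h down to 3 h passed 2 times the SD. Intact, adrenalectomized and 24 h were not distinct by that measure.

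Myf6, the gene of the factor of mature fibres, read 2183, 1722, 1191 and 1755 in intact, adrenalectomized, 3 h and 24 h muscle. The lowest signal was again the 3 h one, 1.45-fold below adrenalectomized, a log2 ratio of -0.53, or -1.90 in units of the SD. It thus missed both 1.5-fold and 2 times the SD, and 5.95% of genes had a ratio at least as low. The intact signal was the highest, 1.27-fold above adrenalectomized, which was within the error. Set against intact muscle, Myf6 at 3 h was 1.83-fold lower, or -3.19 in units of the SD, and 1.44% of genes were as low or lower. In that comparison Myod1 and Myf6 were lower past the error, as were 4.95% of all genes. At 24 h Myf6 was 1.47-fold higher than at 3 h, or 1.82 in units of the SD. It then stood at a log2 ratio of 0.03 to the adrenalectomized array, and ribosomal protein scaling turned its sign only with the shift of all genes, since the ratio above the all-gene median was 0.02 under both scalings. No single step between neighbours in the order of the 4 arrays passed 2 times the SD.

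Myog, which encodes myogenin, read 306, 359.9, 258 and 353 in the same order of arrays. The 3 h signal was again the lowest. Its 3 h signal was 1.40-fold lower than the adrenalectomized one, a log2 ratio of -0.48, or -1.72 in units of the SD, and 7.12% of genes were as low or lower. Unlike Myod1 and Myf6, Myog was higher after adrenalectomy than in intact muscle, by 1.18-fold, within the error. At 24 h its log2 ratio to adrenalectomized was -0.03. No neighbouring arrays in its order differed past 2 times the SD, and neither did any of the 6 comparisons.

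Myf5 read 59.8, 63.6, 51.9 and 67.8. All 4 values were below the floor, and they have no usable order. In the gene order of the GRCm38.p6 assembly Myf5 is the protein-coding neighbour of Myf6, whose probe set was well above the floor on the same arrays. Myf5 is a gene of muscle stem cells, called satellite cells, which make up a small share of nuclei in adult muscle. In bulk tissue fewer cells of a type and less RNA per cell cannot be told apart, and this holds for each gene here.

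Mstn was the 1 member with its highest signal on the 3 h array. It read 2347 in intact muscle, 1986 after adrenalectomy, 2938 at 3 h and 2469 at 24 h. The lowest signal was that of the adrenalectomized array, 1.18-fold below intact, within the error. At 3 h Mstn was 1.48-fold higher than after adrenalectomy alone, a log2 ratio of 0.56, which is 2.02 times the SD. It therefore passed the error narrowly and did not reach 1.5-fold. Past 2 times the SD and higher were 5.38% of all genes in that comparison, and 5.32% had a ratio at least as high as that of Mstn, so its position was not rare. With ribosomal protein scaling the ratio was 0.37, which no longer passed, while the median of all genes moved to -0.21 and the ratio above that median was 0.58. At 24 h Mstn was 1.24-fold above adrenalectomized, within the error, and 1.05-fold above intact, and median scaling turned that sign only with the shift of all genes, since the log2 ratio above the all-gene median was 0.05 under both scalings. No single step between neighbouring arrays passed 2 times the SD.

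**Figure D2:**
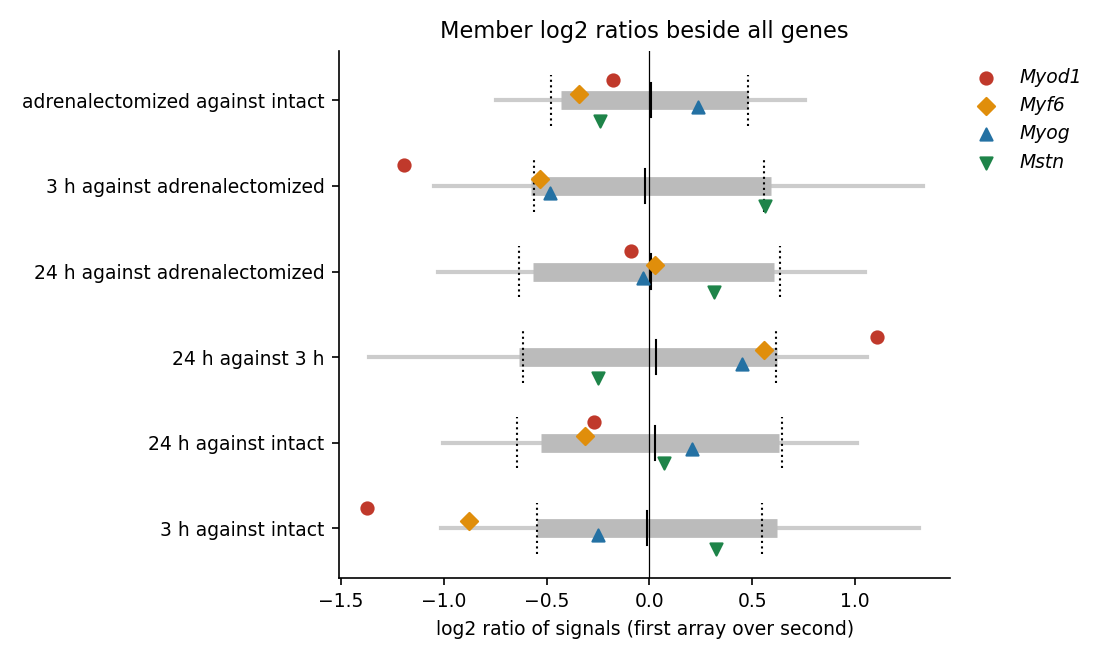
Log2 ratio of Myod1, Myf6, Myog and Mstn in 6 comparisons (coloured symbols); thick grey bars span the central 90% and thin bars the central 98% of all genes compared, black ticks mark their median and dotted lines 2 times the probe set SD. Myod1 leaves the thin bar in the 3 comparisons that involve the 3 h array, at -1.20, 1.11 and -1.37.

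The 250 bases before the transcription start are shown for Myog and Mstn, which had opposite signs at 3 h and whose promoters were both in the RefSeq promoter table (GRCm38.p6). Of the 5 genes, 3 matched that table, namely Myf5, Myog and Mstn. Bases are in lower case, with E-boxes (CANNTG, the same on both strands) in capitals. The Myog window is chr1:134289754-134290003 and the Mstn window chr1:53061390-53061639, both on the plus strand.
Myog: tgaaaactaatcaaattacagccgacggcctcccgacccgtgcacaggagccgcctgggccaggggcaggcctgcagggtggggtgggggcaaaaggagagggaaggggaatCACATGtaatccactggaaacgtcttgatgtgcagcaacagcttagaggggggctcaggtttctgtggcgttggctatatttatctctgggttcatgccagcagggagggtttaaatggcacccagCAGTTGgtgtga
Mstn: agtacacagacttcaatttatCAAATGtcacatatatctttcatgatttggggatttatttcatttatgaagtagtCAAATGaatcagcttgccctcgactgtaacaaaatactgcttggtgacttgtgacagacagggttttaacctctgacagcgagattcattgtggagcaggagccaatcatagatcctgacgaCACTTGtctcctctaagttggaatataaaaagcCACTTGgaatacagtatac
The Myog window held 2 E-boxes, CACATG and CAGTTG, that begin 138 and 12 bases before the start. The Mstn window held 4, which are CAAATG at 229 and 174 bases and CACTTG at 52 and 19 bases before the start. The Myf5 window, not shown, held 0. An E-box was present in 66.2% of the 32536 distinct windows of this length, so its presence is common. The palindromic glucocorticoid response element, searched as AGAACA, any 3 bases and TGTTCT, was in none of the 3 windows and in 0.00922% of all windows. Its hexamer TGTTCT, searched on both strands, was also in none of the 3 and in 16% of all windows. These letters may lie outside the windows, and binding was not measured.

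Most genes that work with or against the myogenic factors were within 1.5-fold, as were most of all genes. Of 47 listed partners, co-activators and inhibitors, 39 had a probe set and 36 were compared at 3 h against adrenalectomized. Their median log2 ratio was -0.09, beside -0.02 for all genes, with 1 gene higher and 2 lower by 1.5-fold or more. Over all genes 5.07% were higher and 4.75% lower by that measure. The 2 lower genes were Six4 and Tead4, which encode transcription factors that act on muscle promoters. Six4 read 526, 538, 298 and 527 in intact, adrenalectomized, 3 h and 24 h muscle, and was 1.81-fold lower at 3 h. Of its 2 other probe sets, 1 read 288 after adrenalectomy and 102 at 3 h, and the other had a log2 ratio of -0.13. Tead4 read 541, 609, 375 and 592 and was 1.62-fold lower at 3 h, while its second probe set above the floor had a log2 ratio of -0.03. As for Myod1, the 3 h signal of Six4 and of Tead4 was the lowest of the 4. Pitx3 was 1.81-fold higher at 3 h, with dim signals of 107 and 194.

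The dimerization partners and inhibitors themselves were all within 1.5-fold at 3 h, as were most of all genes. Of the E protein genes, Tcf3, for E12 and E47, had a log2 ratio of 0.01, Tcf12 of 0.05 and Tcf4 of -0.45. Among the genes of Id proteins, which lack a DNA-binding region and hold E proteins away from the myogenic factors, Id1 had a ratio of 0.04, Id2 of 0.02 and Id3 of -0.14, and Id4, with signals of 116 and 164, of 0.50. Mef2a, Mef2b, Mef2c and Mef2d, genes of the MADS-box factors that act together with the myogenic factors, had ratios of -0.07, -0.40, 0.06 and 0.00. At 24 h 34 of the 36 genes compared were within 1.5-fold of adrenalectomized, beside 10% of all genes outside that range. Mdfi, the gene of an inhibitor of MyoD family proteins, was 1.56-fold higher at 24 h, by a probe set that Affymetrix designed with some selection rules dropped (suffix _r), and its other 2 were below the floor. The receptor gene Notch1 was at least 2.54-fold lower at 24 h, where its second probe set, of that same kind, had a log2 ratio of 0.29. In adrenalectomized against intact muscle all 37 genes compared were within 1.5-fold, beside 4.91% of all genes outside that range.

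Targets of the myogenic factors were mostly within 1.5-fold at 3 h, as were most of all genes. Of 39 listed targets 32 had a probe set and 29 were compared, with a median log2 ratio of -0.03, 3 genes higher by 1.5-fold or more and 0 lower, beside 5.07% and 4.75% of all genes. The creatine kinase gene Ckm had a ratio of -0.03 and the desmin gene Des one of -0.18. The genes of the acetylcholine receptor of the nerve-muscle junction went different ways. Chrna1, for the alpha subunit, read 191, 303, 209 and 162 and had its highest signal after adrenalectomy, from which it was 1.45-fold lower at 3 h and 1.87-fold lower at 24 h. Chrng, for the gamma subunit of fetal and denervated muscle, was at least 2.30-fold higher at 3 h, with 230.5 against a signal below the floor. In intact muscle Chrng read 194, and the 3 h signal was 1.19-fold higher than that. Its second probe set stayed below the floor on all arrays. Musk, the gene of the receptor kinase that organizes the junction, was at least 1.99-fold higher at 3 h, at a signal of 199. Chrne, for the adult epsilon subunit, was 1.51-fold lower at 24 h, by a probe set of the _r kind, and its other 2 had log2 ratios of 0.48 and -0.03. Cdkn1a, the gene of the cell cycle inhibitor p21, was 1.67-fold higher at 3 h, and its second probe set was higher too, with a log2 ratio of 2.37.

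A list of 20 genes known to be high in denervated or inactive muscle had 12 genes on the array, of which 8 were compared at 3 h. Chrng, Musk and Cdkn1a were its 3 members past 1.5-fold and all were higher, beside 5.07% of all genes, with a list median of 0.50 beside -0.02 for all genes. The ratios of Chrng and Musk are bounds from a signal under the floor. This list shares Chrna1, Chrng, Chrnd, Musk, Cdkn1a and Myh3 with the target list, so the counts are not separate. Cdkn1a is also on the list of glucocorticoid response genes below. At 24 h its median was -0.25 over 6 genes, beside 0.01 for all genes. Chrna1 and the deaminase gene Ampd3 were then 1.87-fold and 1.79-fold lower, beside 4.51% of all genes at least 1.5-fold lower. After adrenalectomy Chrna1 was 1.59-fold higher than in intact muscle and Chrng at least 1.94-fold lower. Over all genes 2.67% were higher and 2.24% lower there by 1.5-fold or more.

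Satellite cell and myoblast genes were mostly within 1.5-fold. Of 28 listed genes 22 had a probe set, and 7 of these, among them Pax3 and Calcr, were below the floor on all arrays. Cdh15, the gene of the muscle cadherin of satellite cells, read 287, 269, 231 and 235. At 3 h 13 of 15 genes compared were within 1.5-fold, with the list median at -0.09. Past that limit were 5.07% of all genes higher and 4.75% lower. The Notch ligand gene Dll1 was 1.72-fold lower at 3 h, with signals of 126 and 216. Numb, for an inhibitor of Notch signalling, was 1.52-fold lower, although its second probe set, of the _r kind, had a log2 ratio of 0.92. After adrenalectomy Dll1 was 1.69-fold and Cd34, also a gene of vessel cells, 1.68-fold higher than in intact muscle, beside 2.67% of all genes at least 1.5-fold higher. The second Cd34 probe set had a log2 ratio of 0.43.

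**Figure D3:**
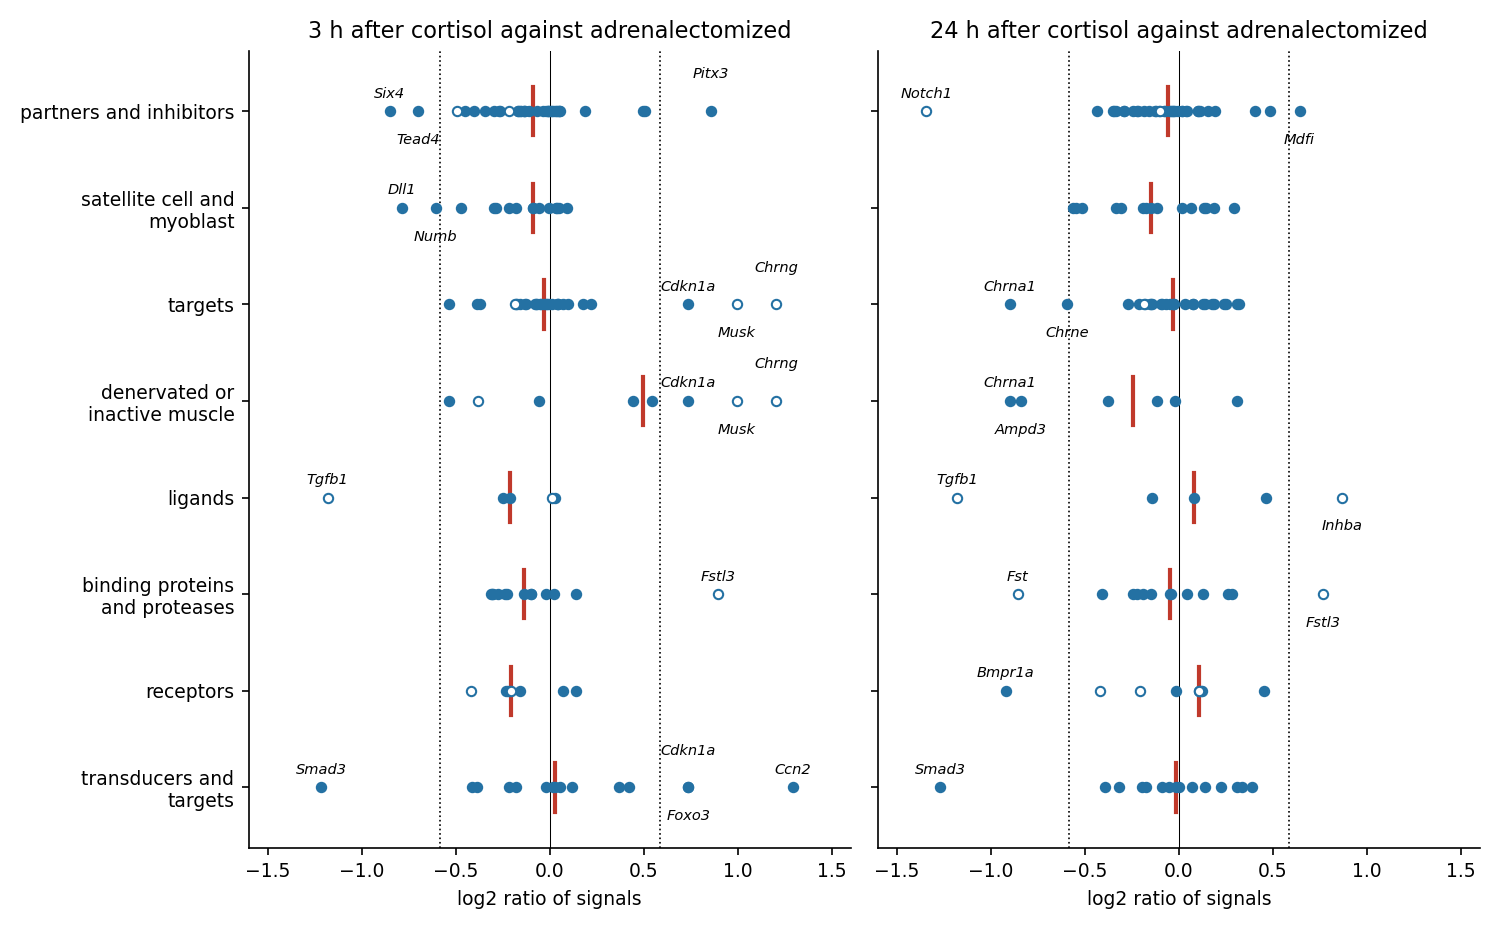
Log2 ratios of the listed genes at 3 h (left) and 24 h (right) against adrenalectomized muscle, 1 row per list; open circles are bounds because 1 array was below the floor, red ticks are list medians and dotted lines mark 1.5-fold. Most points lie within 1.5-fold, with Smad3 at -1.22 and -1.27 in the 2 panels.

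In the myostatin and activin pathway most listed genes were within 1.5-fold, as were most of all genes. Mstn was left out of these counts. The 4 lists of the pathway held 68 entries, of which 55 had a probe set and 41 were compared at 3 h. Of these 4 were higher and 2 lower by 1.5-fold or more, beside 5.07% and 4.75% of all genes, with a median log2 ratio of -0.14 beside -0.02. The 4 higher genes include Cdkn1a, which the target list also holds. At 24 h 2 of 42 were higher and 4 lower, beside 5.49% and 4.51% of all genes, and after adrenalectomy 2 of 41 were higher and 1 lower, beside 2.67% and 2.24%.

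Among the ligands, Gdf11, the gene of the closest relative of myostatin, was below the floor on all 4 arrays. Tgfb1 reached the floor on the adrenalectomized array only, at 227, so it was at least 2.27-fold lower at 3 h and 24 h and in intact muscle. Inhba, for the activin A subunit, reached the floor only at 3 h, with 100.7, and at 24 h, with 182, and was at least 1.82-fold higher at 24 h.

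Among the binding proteins, Fst, the gene of follistatin, read 208, 181, 155 and 80.0. Its signal at 24 h was below the floor, which puts it at least 1.81-fold lower than after adrenalectomy. Fstl3, for a follistatin-like inhibitor of myostatin and activin, read 192, 45.3, 186 and 170.2. The adrenalectomized array alone was below the floor, so Fstl3 was at least 1.92-fold lower than in intact muscle and at least 1.86-fold higher again at 3 h. Furin, for a protease that cleaves the myostatin precursor, was within 1.11-fold of adrenalectomized on every array. The signals of Fst, Fstl3, Tgfb1 and Inhba were all near the floor.

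Among the receptors, all 8 genes compared at 3 h were within 1.5-fold of adrenalectomized muscle. Most of all genes were too, with 5.07% higher and 4.75% lower past that limit. Acvr2b, for the main type II receptor of myostatin, read 610.4, 478, 502 and 653. Acvr2a read 1255, 1119, 958 and 1205. Bmpr1a, a receptor gene of bone morphogenetic proteins, was 1.89-fold lower at 24 h, with 134 against 253.

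Among the transducers, Smad3 was lower at both times after cortisol. It read 320 in intact muscle, 493 after adrenalectomy, 212 at 3 h and 205 at 24 h. The adrenalectomized signal was thus the highest and the 2 cortisol arrays were the lowest. Smad3 was 2.32-fold lower at 3 h, 2.41-fold lower at 24 h and 1.54-fold higher after adrenalectomy than in intact muscle, and the 3 ratios share the adrenalectomized array. Smad2 and Smad4, for the other transducers of the pathway, had log2 ratios of -0.02 and 0.05 at 3 h. Ccn2, a gene induced by transforming growth factor beta, was 2.45-fold higher at 3 h, with 1019 against 416, and read 334 at 24 h. Foxo3, for a transcription factor of muscle wasting, was 1.67-fold higher at 3 h and 1.05-fold higher at 24 h.

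Markers of other cells and fibre types also differed on the 3 h array. Of 11 slow fibre markers on the array, all reached the floor and 8 were at least 2-fold lower at 3 h, beside 1.17% of all genes. Their summed signal was 91.6%, 37.2% and 35.9% of the adrenalectomized sum in intact, 3 h and 24 h muscle. The summed slow fibre signal was thus about as low at 24 h as at 3 h, but the markers were not alike. At 24 h their log2 ratios to adrenalectomized ran from -2.29 to 0.43, with a median of -1.96. Csrp3, 1 of these markers, read 1776, 1470, 1056 and 1566 in intact, adrenalectomized, 3 h and 24 h muscle. Myod1 at 24 h was 94.0% of its adrenalectomized signal. The summed fast fibre signal was 97.6% to 102% of the adrenalectomized sum. Of 18 epidermis and hair markers, 8, 8, 14 and 14 reached the floor in the order of the arrays, and their sum was 97.6%, 692% and 198% of the adrenalectomized one in intact, 3 h and 24 h muscle. None of the 4 arrays had Krt5, Krt14, Krt15 or Dsc3 above the floor. Among markers of hepatocytes, 11, 10, 8 and 8 of 12 reached the floor, and they summed to 134%, 77.5% and 69.7%. The satellite cell markers summed to 98.9%, 100.4% and 90.3%, with 3 of 6 above the floor and Pax3, Calcr and Fgfr4 below it on all arrays. Such sums follow their brightest genes. At 3 h Sdc4 and Itga7 had log2 ratios of 0.03 and 0.05 to adrenalectomized, and the dimmer Cdh15 had -0.22. Macrophage markers, with 6 of 7 above the floor on each array, summed to 87.1%, 72.3% and 93.7%, lowest at 3 h as for Myod1. Single macrophage markers went both ways at 3 h, with log2 ratios from -0.68 for Tyrobp to 0.66 for Fcgr3. The 8 fibroblast markers, all above the floor, summed to 87.7%, 85.4% and 73.1%. Nerve and Schwann cell markers summed to 94.5%, 98.1% and 100.06%, with 4, 6, 5 and 6 of 7 above the floor and Nefl below it on all arrays. Their log2 ratios at 3 h ran from -0.24 to 1.11, the highest being Gfap. The part of these markers in the ratios of Myod1, Myf6, Myog and Mstn was not tested. When arrays were scaled to the fast fibre markers, an alternative chosen after seeing the data, the 3 h ratios were -1.15 for Myod1, -0.49 for Myf6, -0.44 for Myog and 0.61 for Mstn.

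**Figure D4:**
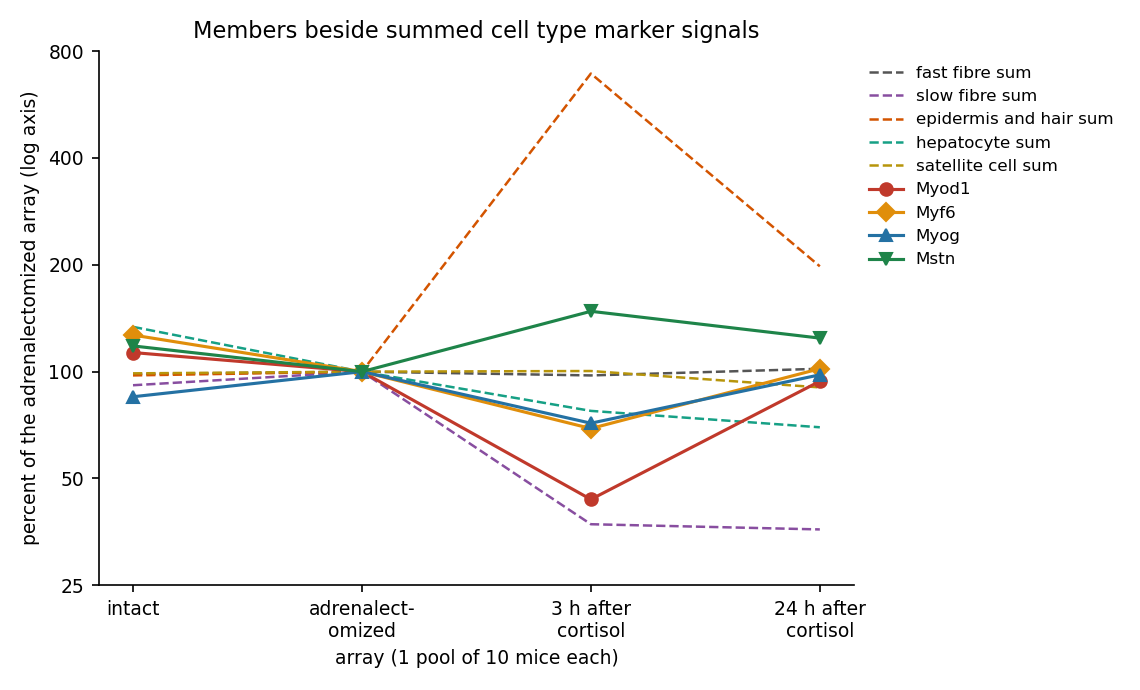
Signals of Myod1, Myf6, Myog and Mstn (solid lines) and summed signals of 5 marker lists (dashed lines) as percent of the adrenalectomized array, on a log axis, 1 array per group. Myod1 is at 43.7% at 3 h and 94.0% at 24 h, while the slow fibre sum stays at 37.2% and 35.9% and the epidermis and hair sum peaks at 692%.

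The 3 h array carried a higher signal of many genes known to be induced by glucocorticoids. Of 18 genes compared from a list of glucocorticoid response genes, 13 were higher and 2 lower by 1.5-fold or more at 3 h. Over all genes these shares were 5.07% and 4.75%. At least 2-fold higher were 10 of the 18, beside 1.86% of all genes. The 2 lower genes were Tsc22d3, for the glucocorticoid-induced leucine zipper protein, 1.65-fold, and Nr3c1, for the glucocorticoid receptor, 1.58-fold. Tsc22d3 thus went against the direction of most of the list. Fkbp5, for a chaperone of the receptor, read 1349, 796, 3771 and 1418. Cebpd, for a transcription factor of the C/EBP family, read 813, 1314, 5503 and 739.5. At 24 h 1 of the 18 was at least 1.5-fold higher and 3 were lower, beside 5.49% and 4.51% of all genes. The Mstn ratio at 3 h, 0.56, was thus below the list median of 1.17.

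The genes most like each member were found by the distance between their 3 log2 ratios against the adrenalectomized array, over 5451 other genes at or above the floor on all 4 arrays. The nearest to Myod1 were Irgm2, an interferon-induced GTPase gene, at 0.15, Cela2a at 0.17 and the cyclin E1 gene Ccne1 at 0.21. Few genes had the pattern of Myod1, with 7 within 0.3, against 40 for Myf6, 128 for Mstn and 357 for Myog. Such counts depend on the size of a member's ratios, since most genes had small ones, and are not a separate result. Closest to Myf6 were the ephrin gene Efna1 at 0.03, Csrp3, for a muscle LIM protein, at 0.11 and Ksr1 at 0.13. Csrp3 is also on the list of slow fibre markers. Myog was nearest to Ring1 at 0.0090, Nrp1 at 0.07 and Psmb10 at 0.08, and Mstn to Sowahc at 0.06, Gtf2e2 at 0.07 and Nsun2 at 0.09. By this distance Myf6 stood 104th, Myog 241st and Mstn 5154th from Myod1. The ranks depend on the gene they start from. Myod1 stood 2462nd from Myf6 and 4277th from Myog, while Myog stood 1119th from Myf6 and Myf6 2498th from Myog. The myogenic factors were thus not among each other's 3 nearest genes. The ranks also depend on the size of the ratios, which at 3 h were -1.20 for Myod1, -0.53 for Myf6 and -0.48 for Myog. Each of these genes had its lowest signal at 3 h. The likeness rests on 3 ratios with a shared array.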

How the data were processed

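Total RNA was isolated from gastrocnemius pooled over 10 mice per group, 1 MG-U74Av2 array per group and no replicate, per the labels. The authors computed linear signal intensity values with MAS 5.0, as the labels state, and deposited them. Their mean, trimmed by 2% at each end, was 499 on every array. The instrument settings that came with each array, of unit other, were deposited by the authors and gave chip lot and fluidics module. For other upstream settings the sources used here give nothing.

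Each array was rescaled to a trimmed mean of 500, values under 100, the floor, were raised to it, and log2 ratios were taken for genes at or above the floor on 1 or both arrays. A fold with 1 side below the floor is a bound. Symbols came from the platform annotation: 10833 probe sets had 1, 396 had several and 1193 had none. A gene (8251 in all) took the values of whichever of its probe sets had the highest mean over arrays. The 3 main comparisons set the adrenalectomized array against intact and each cortisol array against adrenalectomized, and the 3 other pairs were secondary. Named genes were the members, up to 4 genes per list and comparison with the largest ratio past 1.5-fold, and the 3 genes nearest each member; genes named beyond these were chosen by role with their values known. The members and lists were chosen with earlier results of these data known. The computation, in Python 3.11.15 with pandas 2.3.3 and numpy 2.4.6, was tested on simulated data. Alternatives were 4 scalings, other floors, a pseudocount of 50, the mean of all probe sets and, added later, fast fibre scaling.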

Additional observations from a re-analysis of the deposited data

How the results depend on the processing

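The 12 member ratios of the main comparisons were recomputed under 9 alternatives, and none of the 108 values moved by more than 1 probe set SD. Part of this was fixed in advance. Other floors could not change these ratios, since the compared members read above 200 on every array. Averaging probe sets could not either, since each member had 1, and the deposited values were already close to the scaled ones. The sign was kept for 11 of the 12, and the exception was Myf6 at 24 h against adrenalectomized (-0.06 to 0.03). At 3 h against adrenalectomized the ranges were -1.39 to -1.11 for Myod1, -0.73 to -0.49 for Myf6, -0.68 to -0.41 for Myog and 0.37 to 0.61 for Mstn. Ribosomal protein scaling, over 29 probe sets, took Myf6 (-0.73) and Myog (-0.68) past 1.5-fold and past 2 times the SD, but this was the common shift: relative to the all-gene median they were at -0.52 and -0.47 (main -0.51 and -0.46). It moved the split of genes past 2-fold from 61.5% to 40.7% higher. Median scaling and fast fibre scaling took Mstn past 1.5-fold (0.59 and 0.61). Quantile normalization (0.54) and the pseudocount (0.55) took it below 2 times the SD.

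Counts over all genes depended on the floor. With a floor of 50 the genes at least 2-fold higher and lower were 101 and 92 after adrenalectomy (main 21 and 23), 214 and 157 at 3 h (main 115 and 72) and 196 and 158 at 24 h (main 79 and 66). With a floor of 200 they were 4 and 7, 68 and 34, and 17 and 26. At 1.5-fold the counts were 368 and 332, 539 and 485, and 617 and 460 with the floor of 50. They were 57 and 55, 177 and 153, and 144 and 148 with the floor of 200 (main 163 and 137, 313 and 293, 342 and 281). Ribosomal protein scaling gave 196 higher and 646 lower at 1.5-fold and 115 lower at 2-fold at 3 h. The pseudocount gave 42 and 43 at 2-fold after adrenalectomy, and averaging probe sets gave 52 higher at 2-fold at 24 h. Of 108 list counts, most of them under 5, the number that moved by over 1.5 times was 22 with the floor of 50, 25 with the floor of 200, 19 with the pseudocount, 10 with ribosomal protein scaling, 14 with averaged probe sets, 5 with median scaling, 3 with quantile normalization, 4 with fast fibre scaling and 0 as deposited. No paired analysis was possible because each group had 1 array. The number of arrays limits the precision, and signals near the floor give only bounds.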
